A study of Mus musculus with 40 samples.

Results

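DNA replication and mitosis genes were followed in mpkCCD cells, a mouse collecting duct line that was immortalized, after loss of CREB-family transcription factors. The set has 50 genes, listed by symbol, of 55414 genes in the expression table, and all 50 were found in it. By role, 11 license replication origins or belong to the replisome, 11 make DNA or its nucleotides, 6 control the passage from G1 to S phase, 2 inhibit cyclin-dependent kinases (CDKs) and 20 act in G2 and mitosis. The first 22 are called S phase members here and the last 20 mitotic members. Ccnd2 (cyclin D2) was at 0 to 0.1 TPM in every library and was not tested, so 49 members entered the tests. TPM, an abundance measure, is corrected for transcript length and scaled to the same total in every library.

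RNA was sequenced from 22 libraries of 4 groups. Unmodified control clones, labelled wild type, gave 11 libraries, ATF1-KO gave 5, ATF1/CREB1-KO gave 3 and ATF1/CREB1/CREM-KO gave 3, where KO stands for knockout of the named genes. Every group, the control clones included, was grown on permeable supports for 4 days in complete medium with 2% serum and 10 ng/mL epidermal growth factor, then for 3 days in a medium without serum, insulin or growth factor, and received 0.1 nM dDAVP, a vasopressin analogue, for 72 hours. Cells in these cultures had therefore been without serum for the last 3 days, and no library without dDAVP is in the table. The labels do not say whether replicates of a knockout are separate clones, so p-values measure the spread between these libraries, which may be technical. The library numbers form 3 consecutive runs: control clones 1 to 5 with ATF1-KO, control clones 6 to 8 with ATF1/CREB1-KO, and control clones 9 to 11 with ATF1/CREB1/CREM-KO. Each knockout was compared with the control clones of its own run. The 18 samples with a factor put back were not analysed here.

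As background, a cell that commits to division first loads the MCM2-7 helicase onto replication origins with Cdc6 and Cdt1, then fires those origins with Cdc45 and the GINS complex and copies its DNA with polymerases, the PCNA clamp and its RFC loader. E2F factors switch on these genes at the end of G1, when cyclin D and cyclin E with their kinases release them from the retinoblastoma protein. Mitotic genes follow later, under B-Myb and FoxM1, through a promoter element called CHR. CREB1, ATF1 and CREM bind the cAMP response element (CRE) and act downstream of protein kinase A, which vasopressin activates in collecting duct principal cells. Mature principal cells divide rarely, whereas an immortalized line keeps cycling.

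The cell line's label was checked on markers. Of 12 principal cell markers 9 averaged 1 TPM or more over the libraries, as did 6 of 6 tubule epithelium markers. For other cell types the counts were 1 of 7 for intercalated cells, 1 of 5 for proximal tubule, 1 of 4 for immune cells, 0 of 6 for fibroblasts and 0 of 4 for endothelium. The targeted transcripts were still present in every knockout, which does not test the loss of the proteins. Atf1 averaged 26.6 ± 8.88 TPM (SD, n = 5) in ATF1-KO against 42.2 ± 4.22 (n = 5) in control clones 1 to 5. In ATF1/CREB1-KO, Atf1 averaged 19.0 ± 4.38 TPM (n = 3) against 24.5 ± 1.53 (n = 3) and Creb1 3.39 ± 0.596 against 5.55 ± 0.984. In the libraries labelled ATF1/CREB1/CREM-KO, Creb1 averaged 18.7 ± 0.593 TPM (n = 3) against 37.7 ± 1.61 (n = 3), Crem 30.5 ± 4.02 against 22.7 ± 2.48 and Atf1 32.4 ± 8.57 against 40.1 ± 0.389, so the Crem transcript was higher there. Run 2 stood apart from the others. Ribosomal protein genes took 7.21% to 15.3% of its TPM against 2.69% to 4.15% elsewhere, and the TPM-weighted mean transcript length was 1080 to 1183 bases against 1791 to 1852.

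Proliferation transcripts were abundant in every group. In control clones 1 to 5 the median member had 141 TPM, against 28.3 TPM for the median of the 13357 genes that averaged 1 TPM or more, and 45 of 49 members lay above that gene median. Mcm6, a helicase subunit, was the most abundant member with a mean of 686 TPM, and Ccnd1, cyclin D1, the least abundant tested one with 11.7 TPM. Control clones 9 to 11 were alike, with a median member at 127 TPM. In control clones 6 to 8 the median member had 28.4 TPM beside a gene median of 10.3, and Cdkn1a, the CDK inhibitor p21, replaced Mcm6 as the most abundant member at 576 TPM. The summed TPM of the 22 S phase members was 4944 to 6673 in control clones 1 to 5, 1601 to 1953 in control clones 6 to 8 and 5409 to 6245 in control clones 9 to 11. Member changes in run 2 were therefore measured against that run's own control clones, and against all 11 control clones only as an alternative setting. The map of all members by library shows each value against its own control clones.

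**Figure D1:**
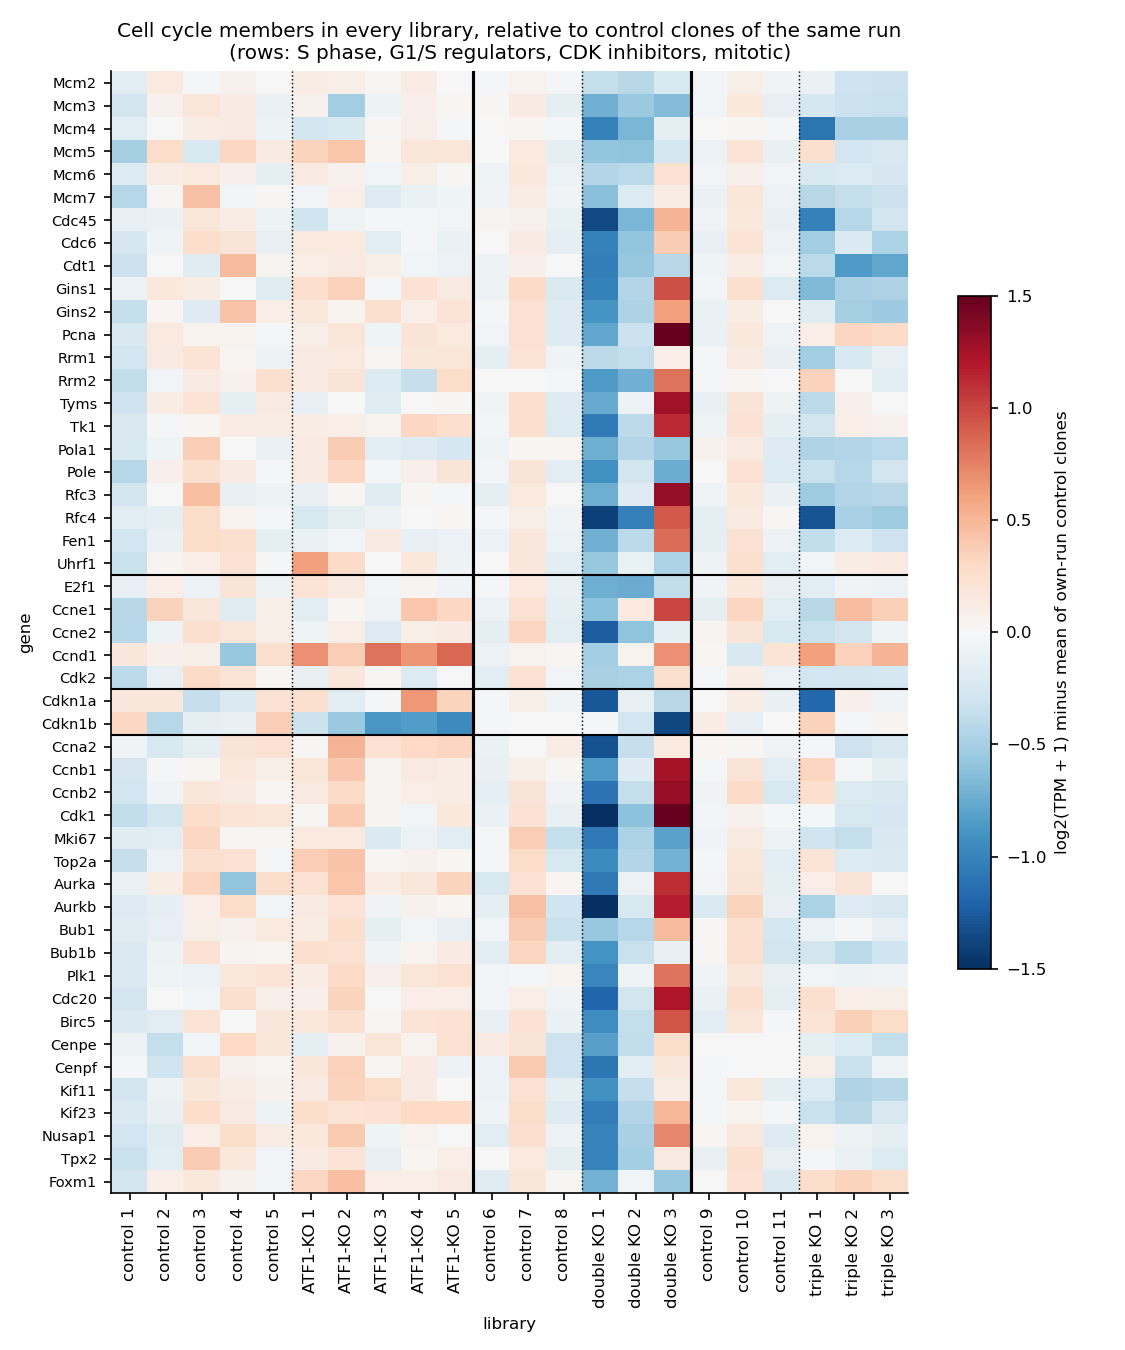
Each cell is the log2(TPM + 1) of a member (row) in a library (column) minus the mean of the control clones of the same run, with colours ending at -1.5 and 1.5; solid vertical lines separate runs, dotted ones separate controls from knockouts, and triple KO stands for ATF1/CREB1/CREM-KO and double KO for ATF1/CREB1-KO. The 3 double KO columns differ from each other, with replicate 1 lower in nearly all rows and replicate 3 higher in many, while the licensing rows at the top are lower in most triple KO cells.

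The promoters of the members that the results turn on are printed first, with the words that were searched for in capitals. Windows run from 250 bases before to 50 bases after the annotated start and come from RefSeq on GRCm38.p6. The words were TGACGTCA for the full CRE, TGACG for the CRE half-site, which is also inside every full CRE, TTTCCCGC, TTTGGCGC, TTTCGCGC or TTTGCCGC for E2F, TTTGAA for the CHR and CCAAT for the CCAAT box, each on both strands, so a word can appear as its reverse complement, and neighbouring words can overlap. Cdt1, Rfc3 and Kif23 are shown because they passed the test in ATF1/CREB1/CREM-KO, Rfc4 because it had the largest decrease there, and Mcm5 and Cenpe because their windows hold the full CRE.
Cdt1 (chr8:122567765-122568064, + strand): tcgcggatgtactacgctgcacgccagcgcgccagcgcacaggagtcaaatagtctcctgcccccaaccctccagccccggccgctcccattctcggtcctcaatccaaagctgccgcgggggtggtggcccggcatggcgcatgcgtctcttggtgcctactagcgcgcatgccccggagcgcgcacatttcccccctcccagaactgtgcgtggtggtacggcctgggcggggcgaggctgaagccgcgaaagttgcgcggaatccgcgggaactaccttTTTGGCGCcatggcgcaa
Rfc3 (chr5:151651159-151651458, - strand): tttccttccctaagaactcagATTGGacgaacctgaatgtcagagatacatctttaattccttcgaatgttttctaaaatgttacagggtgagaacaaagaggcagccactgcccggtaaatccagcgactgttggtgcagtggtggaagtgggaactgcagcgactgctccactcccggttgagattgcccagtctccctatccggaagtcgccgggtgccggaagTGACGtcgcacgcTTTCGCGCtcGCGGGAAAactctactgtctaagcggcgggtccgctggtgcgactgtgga
Kif23 (chr9:61946750-61947049, - strand): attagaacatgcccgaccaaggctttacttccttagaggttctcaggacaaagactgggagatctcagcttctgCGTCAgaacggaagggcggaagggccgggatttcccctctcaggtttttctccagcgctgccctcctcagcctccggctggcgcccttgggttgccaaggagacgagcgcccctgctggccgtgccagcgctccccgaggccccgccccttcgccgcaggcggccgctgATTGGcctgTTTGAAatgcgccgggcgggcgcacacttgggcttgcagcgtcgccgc
Rfc4 (chr16:23127681-23127980, - strand): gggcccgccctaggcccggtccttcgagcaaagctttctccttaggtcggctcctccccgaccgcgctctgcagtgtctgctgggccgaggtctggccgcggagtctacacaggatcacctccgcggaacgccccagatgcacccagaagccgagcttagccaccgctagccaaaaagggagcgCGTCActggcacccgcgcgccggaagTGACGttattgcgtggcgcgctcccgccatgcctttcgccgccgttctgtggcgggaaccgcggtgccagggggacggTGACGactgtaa
Mcm5 (chr8:75109259-75109558, + strand): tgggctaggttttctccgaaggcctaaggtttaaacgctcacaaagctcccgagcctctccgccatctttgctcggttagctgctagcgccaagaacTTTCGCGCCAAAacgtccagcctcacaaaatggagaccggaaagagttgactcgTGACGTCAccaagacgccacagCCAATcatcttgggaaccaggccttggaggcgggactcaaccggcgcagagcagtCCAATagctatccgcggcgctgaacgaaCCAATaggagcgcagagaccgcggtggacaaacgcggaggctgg
Cenpe (chr3:135212313-135212612, + strand): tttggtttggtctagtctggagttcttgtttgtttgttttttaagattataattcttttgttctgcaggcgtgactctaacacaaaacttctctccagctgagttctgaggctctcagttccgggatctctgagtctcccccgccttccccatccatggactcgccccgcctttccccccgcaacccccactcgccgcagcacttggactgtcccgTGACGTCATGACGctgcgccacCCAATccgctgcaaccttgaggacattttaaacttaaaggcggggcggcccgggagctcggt

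The Cdt1 window holds an E2F word and no CRE half-site, whereas Rfc3 holds a half-site beside 2 E2F words and a CCAAT box. Kif23 holds a half-site, a CCAAT box and the CHR, and Rfc4 has 3 half-sites and none of the other words. Among the members, 39 symbols with 43 windows were in the promoter table, which had no entry for Gins1, Gins2, Mcm4, Pole, Ccnd1, Ccnd2, Ccne2, Ccna2, Aurkb, Tpx2 and Foxm1. The half-site was in 41.9% of member windows and in 20.8% of all 32851 windows. E2F words were in 42.9% of the 21 S phase windows, 6.25% of the 16 mitotic windows and 2.27% of all windows. The CHR word showed the opposite pattern, with 68.8% of mitotic windows, 14.3% of S phase windows and 17.9% of all windows. CCAAT boxes were in 69.8% of member windows and 37.4% of all windows. The full CRE was in 2 member windows, 4.65%, and in 1.79% of all windows. These shares describe letters in a window and were not matched for base composition.

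In ATF1-KO, where ATF1 alone was targeted, no replication or mitosis gene was told apart from the control clones by the test. Of 49 members, 0 passed the test (limma on log2(TPM + 1), Benjamini-Hochberg adjusted p under 0.05), as did 0 of 13318 genes, a background of 0%. At an unadjusted p under 0.05 there were 4 members, 8.16%, against 1014 genes, 7.61%. The median log2 change was 0.02 over the 22 S phase members and 0.13 over the 20 mitotic members, beside -0.00 over all genes. A positive sign was found for 19 of 20 mitotic members and for 13 of 22 S phase members, beside 49.0% of all genes. Members of a class can move together within a library, as in control clone 1. These signs, like those given below for the other knockouts and the wider lists, are therefore not separate observations.

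Among G1/S regulators Ccnd1, the cyclin that starts the G1 phase kinases, separated the groups. Control clones 1 to 5 had 12.9, 12.1, 12.2, 7.39 and 13.7 TPM of Ccnd1. The ATF1-KO libraries had 19.1, 15.00, 20.9, 18.6 and 21.6 TPM. Every ATF1-KO library was above every control clone, which was true of 0.563% of all genes in this direction and of no other member. The log2 change was 0.68 (SE 0.16) with an adjusted p of 0.514 by limma, and no gene in this comparison had a smaller one. Cdkn1b, the CDK inhibitor p27, went the other way. Its controls had 14.6, 8.34, 10.4, 10.6 and 15.2 TPM and ATF1-KO had 9.08, 7.57, 5.86, 6.00 and 5.48 TPM, so replicate 1 of the knockout was above 1 control clone. The change was -0.71 (SE 0.18, adjusted p = 0.555 by limma). The other inhibitor, Cdkn1a, had a log2 change of 0.21 (SE 0.16).

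Every mitotic member overlapped its control clones. Ccna2, cyclin A2, which pairs with Cdk2 in S phase and Cdk1 in G2, had 167 to 230 TPM in the controls and 197 to 279 in ATF1-KO, and its log2 change of 0.27 (SE 0.11) was the largest increase of the class. Kif23, a kinesin of the central spindle, followed at 0.26 (SE 0.09), with 154 to 215 TPM against 206 to 221. Foxm1, the transcription factor of the mitotic program, was at 0.22 (SE 0.10), Ccnb1 at 0.17 (SE 0.09), Cdk1 at 0.11 (SE 0.14), Top2a at 0.18 (SE 0.13) and Mki67 at -0.04 (SE 0.11). S phase members lay nearer to 0, with Mcm5 at 0.23 (SE 0.15), Pcna at 0.11 (SE 0.08), Mcm2 at 0.07 (SE 0.07), Rrm2 and Cdc6 at 0.01 (SE 0.14 and 0.11). The lowest of them were Cdc45 at -0.09 (SE 0.08) and Rfc4 at -0.09 (SE 0.09). Control clone 1 was below the mean of its own group in 22 of 22 S phase and 20 of 20 mitotic members, with medians of -0.27 and -0.22. Without it the S phase median of ATF1-KO was -0.05 and the mitotic median 0.08.

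**Figure D2:**
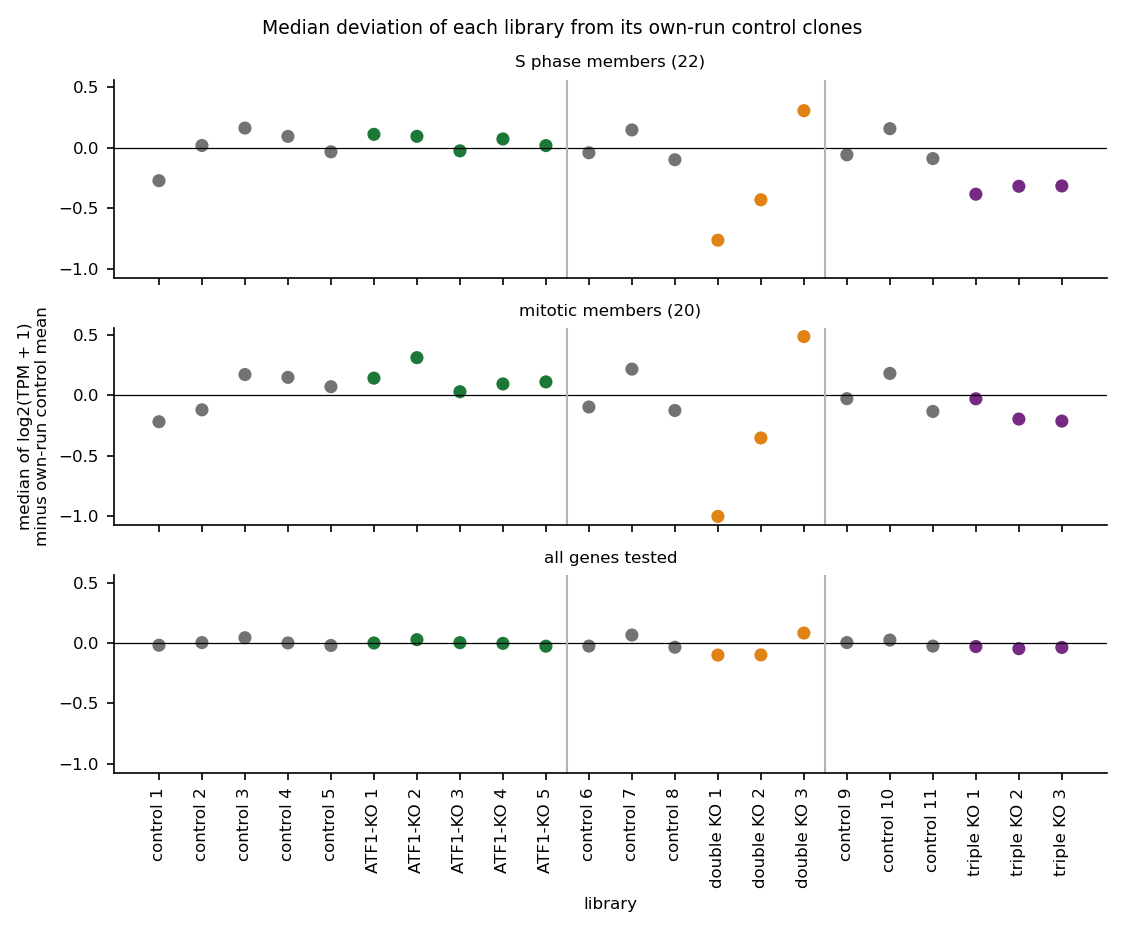
Each point is the median, over the 22 S phase members, the 20 mitotic members or all genes tested, of log2(TPM + 1) minus the average of the run's control clones in 1 library; grey points are control clones, and vertical lines separate the runs. The 5 ATF1-KO points lie among their controls in the S phase panel, the 3 ATF1/CREB1-KO points run from -0.76 to 0.31 there, and the 3 ATF1/CREB1/CREM-KO points sit together at -0.38 to -0.32.

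With CREB1 lost together with ATF1, the 3 replicates did not behave alike. Members passing the test were 0 of 49, beside 9 of 12579 genes, a background of 0.0715%. On simulated data the fit of this run did not recover differences of 1 on the log2 scale, and no member's fitted change reached that size, so the count of 0 says little about the members. Unadjusted p was under 0.05 for 9 members, 18.4%, and for 9.53% of genes. The medians were -0.30 over S phase members and -0.29 over mitotic members against -0.03 over all genes. A negative sign was found for 11 of 11 licensing members, 8 of 11 synthesis members and 19 of 20 mitotic members, beside 53.1% of all genes. Those medians average libraries that differ. Replicate 1 had medians of -0.76 (S phase) and -1.001 (mitotic), replicate 2 had -0.43 and -0.35, and replicate 3 had 0.31 and 0.49. All 22 S phase and all 20 mitotic members were below the control mean in replicates 1 and 2, whereas in replicate 3 only 8 S phase and 4 mitotic members were. Other measures set single replicates apart. In replicate 3 ribosomal protein genes took 7.21% of TPM against 13.2% and 12.7% in replicates 1 and 2. Its tubule epithelium markers summed to 5044 TPM against 1705 and 2074, with 2532 to 2580 in control clones 6 to 8. In replicate 1 principal cell markers summed to 5257 TPM against 1404 and 1272 in replicates 2 and 3, with 1540 to 3242 in those controls. Most of that sum was 1 marker, Fxyd4, whose highest value of 4198 TPM exceeds the sum of every other library. Replicate 1 had a proximal tubule sum of 22.8 TPM against 5.09 and 2.54, and an immune sum of 1.76 against 7.19 and 9.36. Lrp2 was the only proximal tubule marker to reach 1 TPM in any library, and Cd68 the only immune marker averaging 1 TPM or more. The mitochondrial genome took 3.20% to 4.31% in the knockout and 2.08% to 2.33% in those controls. Their part in the member changes was not tested.

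Cdk1, the kinase that drives entry into mitosis, shows the spread. Control clones 6 to 8 had 171, 214 and 170 TPM, and the ATF1/CREB1-KO libraries had 63.3, 119 and 523 TPM. Replicates 1 and 2 were under every control and replicate 3 was over every control. Pcna, the sliding clamp, had 136, 166 and 124 TPM in the controls and 81.9, 113 and 419 TPM in the knockout. Tyms, which makes thymidylate, and Ccne1, cyclin E1, had their highest value of the run in replicate 3, at 600 and 17.7 TPM. Tyms, Ccne1 and Pcna had the highest fitted changes, 0.14 (SE 0.48), 0.18 (SE 0.39) and 0.16 (SE 0.57).

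A second set of members was lower in all 3 replicates. Of the 49 members 12 had every knockout library under every control clone, 24.5%, beside 12.4% of all genes, and 0 members had the reverse, beside 6.67%. By class these were 7 of 22 S phase members, 31.8%, and 2 of 20 mitotic members, 10.0%. The mitotic share was thus near that of all genes. The 12 were the licensing genes Mcm2, Mcm3, Mcm4, Mcm5 and Cdt1, the polymerase genes Pola1 and Pole, E2f1, both CDK inhibitors, and the mitotic genes Mki67 and Top2a. E2f1, the transcription factor of the G1/S switch, had 16.0, 18.0 and 14.8 TPM in the controls and 9.34, 9.27 and 12.4 TPM in the knockout. Its log2 change was -0.62 (SE 0.19), with an adjusted p of 0.421 in the run's own limma fit and 0.00788 in the limma fit of all 22 libraries with run as a term. Mki67, the proliferation antigen Ki-67, had 11.4, 15.2 and 8.84 TPM against 4.98, 8.08 and 6.23. Top2a, topoisomerase II alpha, had 78.7, 97.4 and 67.7 TPM against 40.9, 59.0 and 49.0. The changes of Mki67 (-0.78, SE 0.25), Top2a (-0.70, SE 0.24) and Cdt1 (-0.67, SE 0.22) were the largest decreases. The fit of all 22 libraries called 7 of 49 members lower and 0 higher. Its background was 4.58% of 13295 genes, and 3.11% in the lower direction. The 7 were Mcm3, Cdt1, Pola1, Pole, E2f1, Mki67 and Top2a. That fit shares 1 estimate of a gene's spread over all 22 libraries, most of them from other runs. The remaining named members were Mcm2 (-0.34, SE 0.18), Mcm5 (-0.49, SE 0.20), Cdc6 (-0.41, SE 0.35), Rrm2 (-0.25, SE 0.44), Ccna2 (-0.51, SE 0.36), Foxm1 (-0.44, SE 0.23), Ccnb1 (0.07, SE 0.49), Ccnd1 (0.08, SE 0.30), Cdkn1a (-0.61, SE 0.30) and Cdkn1b (-0.56, SE 0.35). Cdkn1b separated the groups only narrowly in replicate 1. It had 41.34, 42.36 and 42.37 TPM in the controls and 41.19, 34.31 and 15.69 TPM in the knockout.

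Transcript length moved with the position of members in replicate 3. Lengths are the median over a gene's annotated protein-coding transcripts, 559 to 5346 bases for the members, and need not be that of the transcript expressed. The 24 members shorter than 2323 bases had a median of 0.96 in replicate 3, with 19 above 0, and the 25 others had a median of 0.11, with 14 above 0. In replicate 1 the medians were -0.996 and -0.82, with 0 above 0 in either set, and in replicate 2 they were -0.30 and -0.44. Spearman's rho between length and deviation across the 49 members, which share the library, was -0.50 in replicate 3, 0.26 in replicate 1 and -0.14 in replicate 2, and -0.15 across 12474 genes in replicate 3. Mki67 and Top2a, at 5318 and 5221 bases, were among the longest, and Cdk1 and Pcna had 1253 and 1518 bases. The part of length in these differences was not tested. With a smooth length trend removed from each library, the ATF1/CREB1-KO medians were -0.26 (S phase) and -0.25 (mitotic) against -0.30 and -0.29 without that step. This alternative was added after the data were seen. It left 0 members called, as in the main fit, which says little because the main fit did not recover simulated differences of 1.

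**Figure D3:**
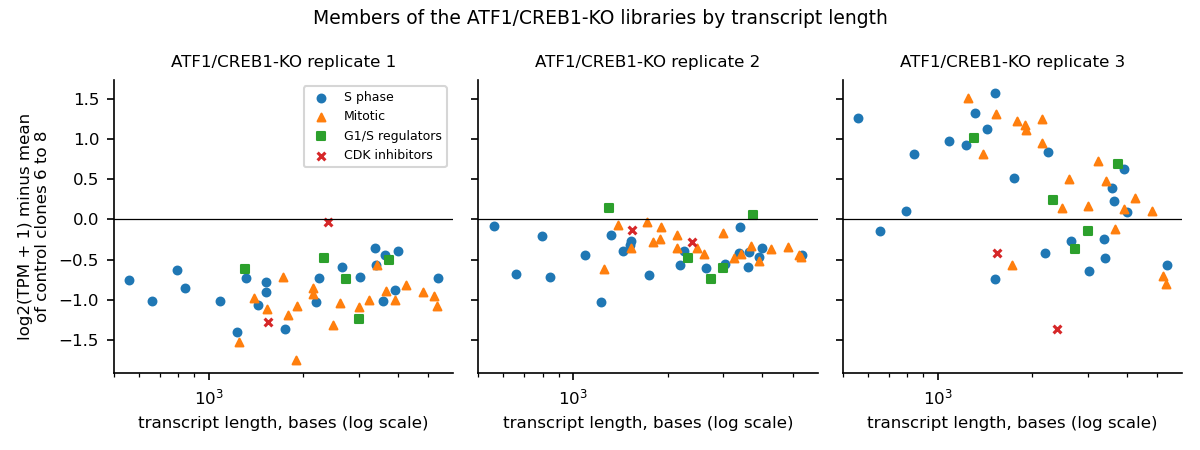
Each point is a member, placed by transcript length in bases (log axis) and by log2(TPM + 1) minus the mean of control clones 6 to 8, for the 3 ATF1/CREB1-KO libraries; marker shapes give the class. In replicate 3 short members reach above 1, and the longest members, Pola1, Mki67 and Top2a, lie below 0. Other long members, such as Kif11 and Cenpe, lie above 0 there. In replicate 1 all lie below 0 at every length.

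Without ATF1/CREB1-KO replicate 3, the median was -0.59 over S phase members and -0.67 over mitotic members, and every tested member had a negative sign. Rfc4, a subunit of the clamp loader, was then called lower by limma (-1.21, SE 0.15, adjusted p = 0.0420), beside 60 of 12554 genes, 0.478%, with 2 knockout libraries left. Without replicate 1 the medians were -0.09 and 0.03 and 0 members were called, beside 0.0397% of genes. The direction of the mitotic median in this genotype therefore rests on replicate 1.

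With ATF1, CREB1 and CREM targeted together, licensing transcripts were lower in nearly every library, and the fitted changes of mitotic members lay nearer to 0. Of 49 members 3 passed the test and were lower, 6.12%. The background was 9.17% of 13258 genes in both directions and 5.26% in the lower direction, so the share of members called was near that of all genes. Unadjusted p was under 0.05 for 22 members, 44.9%, and for 27.0% of genes. The S phase median was -0.32 and the mitotic median -0.09 against -0.05 over all genes. All 11 licensing members were negative, as were 8 of 11 synthesis members and 15 of 20 mitotic members, beside 55.5% of all genes.

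Cdt1, which loads the MCM helicase, was the member with the smallest adjusted p. Its TPM was 128, 145 and 130 in control clones 9 to 11 and 101, 73.8 and 77.7 in the knockout. Every knockout library was under every control, and the mean was 62.7% of the control mean (log2 change -0.68, SE 0.13, limma adjusted p = 0.0281). Rfc3, a clamp loader subunit, had 204, 237 and 197 TPM in the controls and 147, 157 and 158 TPM in the knockout (-0.46, SE 0.09, limma adjusted p = 0.0312). Kif23 had 190, 201 and 189 TPM against 154, 145 and 163 TPM (-0.33, SE 0.08, limma adjusted p = 0.0494). The groups did not overlap in Rfc3 or Kif23 either. These 3 calls depended on which libraries entered the fit: without any single control clone, or without replicate 2 or 3, 0 members were called. Without replicate 1, 16 members were called, 15 lower and Pcna higher, beside 25.1% of 13233 genes. In the fit of all 22 libraries Cdt1 remained called (adjusted p = 0.0189 by limma), Rfc3 and Kif23 were not (0.427 and 0.463), and Mcm4 was called (0.0190), 2 of 49 members beside 8.02% of genes.

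In the licensing and replisome class, 10 of 11 members had every knockout library under every control clone, 90.9%, beside 20.2% of all genes in that direction. Mcm4 had 397, 399 and 389 TPM in the controls and 185, 281 and 281 TPM in the knockout. That is a log2 change of -0.69 (SE 0.17) with a limma adjusted p of 0.0512. Gins1 was at -0.54 (SE 0.14), Cdc45 at -0.57 (SE 0.20), Gins2 at -0.41 (SE 0.12), Cdc6 at -0.40 (SE 0.13), Mcm7 at -0.36 (SE 0.10), Mcm3 at -0.31 (SE 0.09), Mcm2 at -0.24 (SE 0.09) and Mcm6 at -0.23 (SE 0.07). None of these passed the test. Mcm5, whose promoter window holds the full CRE, was the exception, with 382, 466.2 and 374 TPM in the controls and 480, 332 and 343 TPM in the knockout. Its replicate 1 was above every control and its other replicates below every control, and the log2 change was -0.09 (SE 0.17).

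Synthesis members were mixed. Rfc4 had 254, 309 and 286 TPM in the controls and 115, 200.5 and 195 TPM in the knockout, the largest decrease of any member (-0.77, SE 0.22, limma adjusted p = 0.0771). Without replicate 1 it was -0.51 (SE 0.09, limma adjusted p = 0.0103). Groups also did not overlap, in the lower direction, for Pola1 (-0.43, SE 0.11), Pole (-0.34, SE 0.12), Fen1 (-0.30, SE 0.12) and Rrm1 (-0.29, SE 0.12), which encode a polymerase catalytic subunit each, the flap endonuclease of lagging strand synthesis and the large ribonucleotide reductase subunit. Pcna went the other way, with 309, 369 and 319 TPM in the controls and 354, 414 and 405 TPM in the knockout (0.24, SE 0.10, limma adjusted p = 0.200), and 1 control exceeded 1 knockout library. Rrm2 (0.06, SE 0.13), Tyms (-0.10, SE 0.15), Tk1 (-0.03, SE 0.14) and Uhrf1 (0.07, SE 0.12) overlapped their controls. Rfc4, Mcm4 and Cdc45 are the members on chromosome 16. In replicate 1 of this knockout they deviated from the control mean by -1.29, -1.09 and -1.02 on the log2 scale. The next lowest S phase member there was Gins1 at -0.66, but Cdkn1a, a CDK inhibitor on chromosome 17, was at -1.18. In replicates 2 and 3 of this knockout Rfc4, Mcm4 and Cdc45 ran from -0.53 to -0.28. In ATF1/CREB1-KO they were at -1.40, -1.01 and -1.36 in replicate 1, where Aurkb and Cdk1 were lower still (-1.75 and -1.52). They were at -1.02, -0.68 and -0.69 in its replicate 2 and at 0.92, -0.14 and 0.51 in its replicate 3. The part of the shared chromosome in their decreases was not tested.

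**Figure D4:**
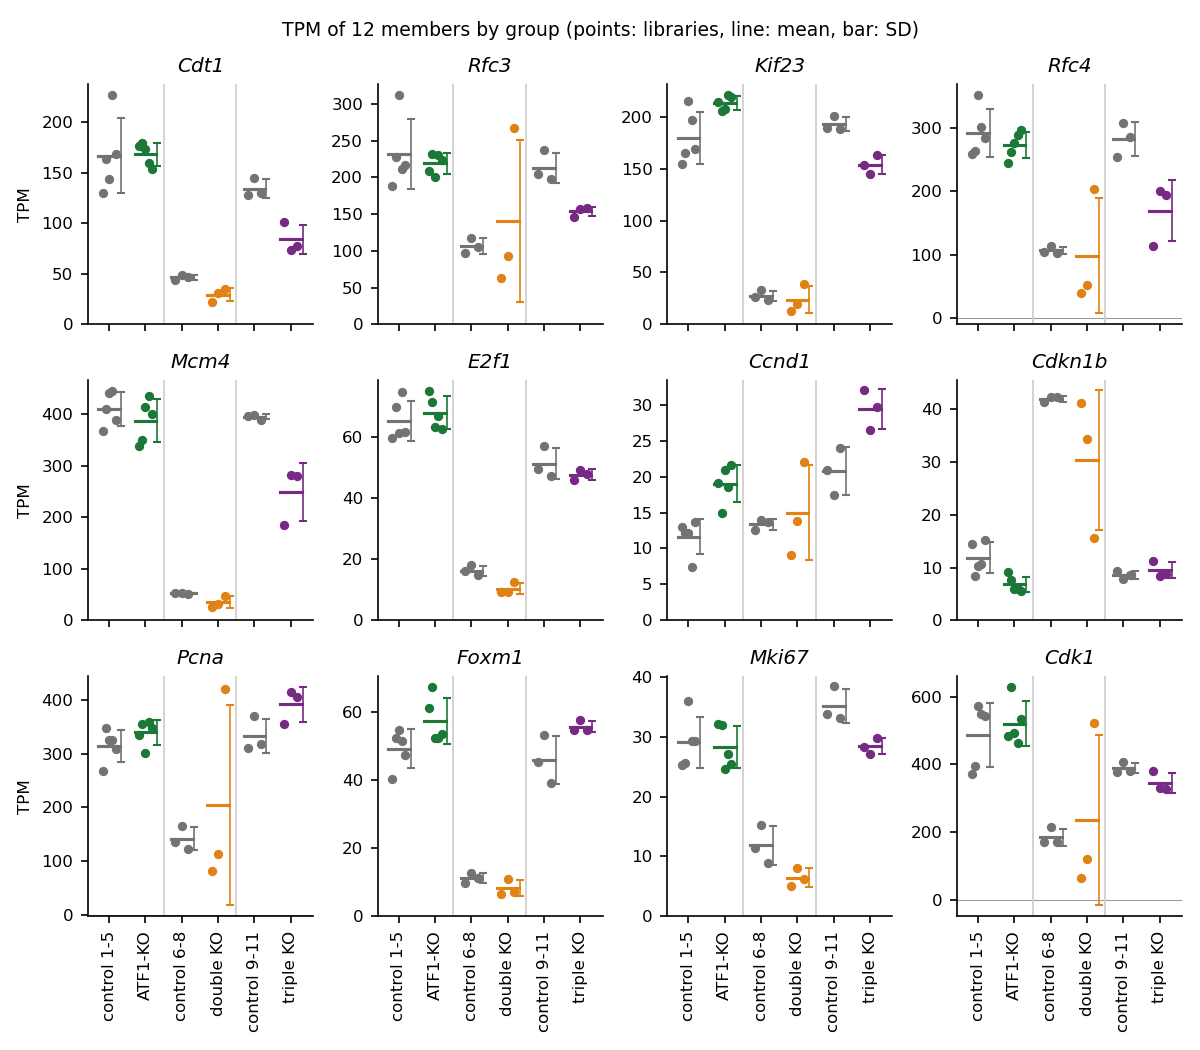
TPM of 12 members in the 3 own-run comparisons; points are libraries, horizontal lines are means and bars are SD, with n of 5 and 5 in run 1 and 3 and 3 in the others. Triple KO stands for ATF1/CREB1/CREM-KO and double KO for ATF1/CREB1-KO. Cdt1, Rfc3, Kif23, Rfc4 and Mcm4 lie under their controls in triple KO and Ccnd1 lies over them, while the double KO points of Cdk1, Pcna and Rfc3 are spread widely.

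Of the 20 mitotic members in ATF1/CREB1/CREM-KO, Kif23 was the one that passed the test. Groups did not overlap for 5 of 20 in the lower direction, beside 20.2% of all genes, and for 2 in the higher direction, Birc5 and Foxm1, beside 14.5%. The 5 were Kif23, the spindle motor Kif11 (-0.35, SE 0.11), the checkpoint kinase Bub1b (-0.32, SE 0.14), Mki67 (-0.30, SE 0.10) and the kinetochore motor Cenpe (-0.24, SE 0.10). Foxm1 had 45.3, 53.2 and 39.1 TPM in the controls and 54.8, 57.6 and 54.6 TPM in the knockout (0.29, SE 0.12, limma adjusted p = 0.196). Birc5, survivin of the chromosomal passenger complex, had 190, 240 and 207 TPM against 244, 271 and 256 (0.28, SE 0.11, limma adjusted p = 0.148). The mitotic cyclins and their kinase overlapped their controls, with Ccna2 at -0.19 (SE 0.10), Ccnb1 at 0.05 (SE 0.15) and Cdk1 at -0.17 (SE 0.09), and so did Top2a at -0.07 (SE 0.15). Summed over members, mitotic TPM was 42.1%, 42.3% and 40.7% of S phase TPM in control clones 9 to 11 and 51.1%, 44.8% and 45.0% in the knockout, with no overlap. In control clones 1 to 5 this share ran from 36.5% to 44.8%, and in ATF1-KO from 43.5% to 51.2%. It was 35.4%, 45.5% and 53.0% in ATF1/CREB1-KO against 44.0% to 47.4% in control clones 6 to 8, on both sides of the controls. Control clone 10 was the highest control in most members, above the control mean in 22 of 22 S phase and 19 of 20 mitotic members. Without it the S phase median was -0.23 and the mitotic median turned to 0.01. Without ATF1/CREB1/CREM-KO replicate 1 the S phase median was -0.33 and the mitotic median -0.20, so the gap between the classes rests partly on that replicate. Leaving out control clone 10 raised both medians and did not narrow the gap.

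Among the G1/S regulators of ATF1/CREB1/CREM-KO, Ccnd1 was again above its controls. It had 21.0, 17.4 and 23.99 TPM in control clones 9 to 11 and 32.0, 26.6 and 29.7 TPM in the knockout, with no overlap, which was true of 14.5% of genes in the higher direction. The log2 change was 0.49 (SE 0.14, limma adjusted p = 0.0827). In ATF1/CREB1-KO the 3 libraries had 9.11, 13.85 and 22.1 TPM against 12.52 to 13.9 in the controls. Cdk2, the partner of cyclins E and A, was under its controls in all 3 libraries (-0.28, SE 0.08, limma adjusted p = 0.0840). E2f1 was at -0.10 (SE 0.10), with 47.4 to 57.1 TPM in the controls and 45.8 to 49.3 in the knockout. Cdkn1a had 252, 271 and 233 TPM against 111, 266 and 243, so replicate 1 alone was low (-0.38, SE 0.32). Cdkn1b did not differ beyond the spread (0.12, SE 0.15).

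**Figure D5:**
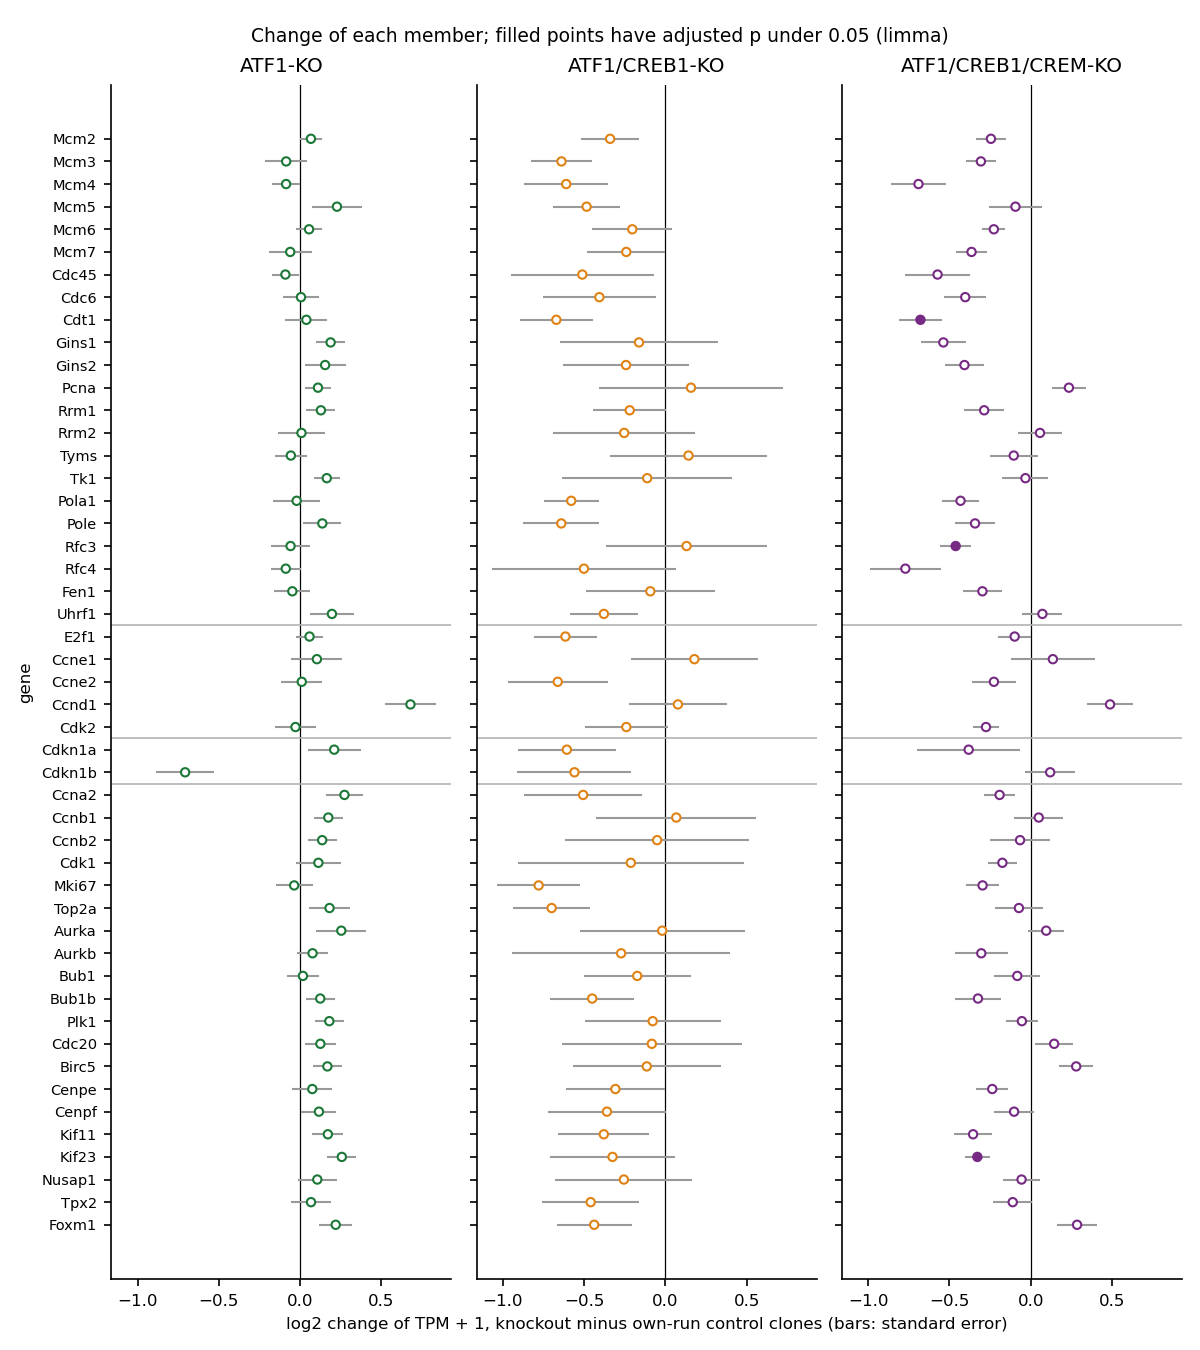
Fitted log2 change of TPM + 1 (knockout minus own-run control clones) with standard error for the 49 tested members in the 3 comparisons; grey lines separate S phase members, G1/S regulators, CDK inhibitors and mitotic members, and filled points passed the test. The filled points are Cdt1, Rfc3 and Kif23 in ATF1/CREB1/CREM-KO, and the bars are longest in ATF1/CREB1-KO.

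Other values moved with the ATF1/CREB1/CREM-KO comparison. The mitochondrial genome took 2.06% to 2.63% of TPM in the knockout and 1.21% to 1.42% in control clones 9 to 11. Ribosomal protein genes took 3.13% to 3.34% against 3.67% to 4.15%, and the 6 tubule epithelium markers summed to 6808 to 8423 TPM against 8679 to 10159. The summed TPM of the 12 principal cell markers was 780 to 1591 in the knockout against 1665 to 3802 in the controls. Aqp2, the vasopressin-regulated water channel, is 1 of these 12. It was at 15.49 ± 0.499 TPM (SD, n = 3) against 1516 ± 825 (n = 3), a large part of that drop. Markers of proximal tubule, essentially Lrp2 alone, summed to 1.38 to 25.5 TPM in the knockout and 19.98 to 21.6 in the controls. Those of immune cells, mostly Cd68, summed to 2.28 to 3.35 against 5.00 to 8.02. Fibroblast markers summed to 0.15 to 1.95 against 0.14 to 0.27, and those of endothelium to 0 to 0.12 against 0 to 0.10. The part of these in the member changes was not tested. In bulk RNA, fewer cycling cells and less of a transcript per cycling cell cannot be told apart.

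The wider cell cycle lists hold 113 genes that are not members. In ATF1-KO 0 of them passed the test, in the own-run fit and in that of all 22 libraries. There 44 of 45 further mitotic genes had a positive sign with a median of 0.14, and 25 of 45 further S phase genes with a median of 0.03. Over all genes 49.0% had a positive sign. In ATF1/CREB1-KO 0 passed in the run's own fit. In the fit of all 22 libraries 10 of 45 S phase, 4 of 45 mitotic and 1 of 22 G1 and arrest genes were lower, beside 3.11% of all genes. In ATF1/CREB1/CREM-KO, 6 of 45 further S phase genes were lower and 0 higher, 13.3% beside 5.26% of all genes in the lower direction. The fit of all 22 libraries called 2 of the 45 lower, beside 5.12% of all genes, so that excess was not seen there. Of 45 further mitotic genes 2 were lower and 2 higher, beside 5.26% and 3.91% of all genes, and of 22 tested genes of G1 and arrest 1 was lower, Mdm2, the ubiquitin ligase of p53 (-0.44, SE 0.09, limma adjusted p = 0.0354). Brca2, which acts in DNA repair, had the largest decrease, from 29.1 ± 2.54 TPM (SD, n = 3) to 6.04 ± 0.771 (n = 3). Its log2 change was -2.10 (SE 0.13, limma adjusted p = 0.000806). Spc24, of the kinetochore Ndc80 complex, was at -0.84 (SE 0.12, limma adjusted p = 0.0103), and Timeless, of the replication fork protection complex, at -0.65 (SE 0.08, limma adjusted p = 0.00815). Prim2 (primase), at -0.54 (SE 0.11), and Gins4, at -0.46 (SE 0.08), were also called. The called higher genes were Anln, anillin of the cleavage furrow (0.53, SE 0.09, limma adjusted p = 0.0197), and Cdc25c, the phosphatase that activates Cdk1 (0.69, SE 0.12, limma adjusted p = 0.0185). In the fit of all 22 libraries Brca2, Spc24 and Timeless passed, and Mdm2, Prim2, Gins4, Anln and Cdc25c did not (limma adjusted p of 0.0729, 0.0755, 0.416, 0.157 and 0.0581).

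Whether the 3 genotypes differed from each other was tested on the effects themselves, each against its own control clones, in 1 limma fit of the 22 libraries. Between ATF1/CREB1-KO and ATF1-KO, 1 of 49 members passed, beside 1.46% of 13295 genes. It was E2f1 (ATF1/CREB1-KO effect minus ATF1-KO effect -0.67, SE 0.16, limma adjusted p = 0.0350). Without ATF1/CREB1-KO replicate 3, 24 members passed in this contrast, all lower, beside 4.66% of genes, and with median-ratio scaling 5 did, all lower, beside 3.07%. Between ATF1/CREB1/CREM-KO and ATF1-KO 0 members passed, beside 3.57% of genes, with Cdt1 at a difference of -0.72 (SE 0.22, limma adjusted p = 0.0873). Without ATF1/CREB1-KO replicate 3, which takes no part in that contrast but in the shared spread, 4 members passed, beside 6.60% of genes. Between ATF1/CREB1/CREM-KO and ATF1/CREB1-KO 0 members passed, beside 0.188% of genes. Cdt1 differed there by -0.01 (SE 0.25), E2f1 by 0.52 (SE 0.18, limma adjusted p = 0.390) and Foxm1 by 0.72 (SE 0.23, limma adjusted p = 0.345). Runs and genotypes go together in these tests and cannot be told apart beyond the subtraction of each run's own controls.

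Members with and without a promoter word can be set side by side, as a description. In ATF1/CREB1/CREM-KO the 18 tested members with a CRE half-site had a median log2 change of -0.26 (range -0.77 to 0.24) and the 21 without it -0.10 (range -0.68 to 0.28). The 11 with an E2F word had -0.31 and the 28 without it -0.09. In ATF1/CREB1-KO the same medians were -0.32 and -0.22 for the half-site, and -0.38 and -0.25 for the E2F word. In ATF1-KO they were 0.07 and 0.11, and 0.01 and 0.11. The ranges of the pairs overlapped in each case, and 9 of the 18 windows with a half-site belong to S phase members. Of the 11 windows with an E2F word 9 belong to S phase members, so that split largely repeats the split by class.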

How the data were processed

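Expression was measured in 22 libraries of mpkCCD cells. Library preparation, per the labels' protocols, used SMARTer V4 cDNA with 8 PCR cycles, Nextera XT tagmentation and paired-end reads. STAR and RSEM are named in the submitters' processing notes. Versions, genome build and annotation are not given in the sources used here. The authors deposited TPM, read as such from the values, since each column sums to 999999.4 to 1000001.0. TPM keeps no depth, so the number of reads behind a value is not known.

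The test was that of limma 3.58.1 (R 4.3.3; lmFit, eBayes with trend) applied to log2(TPM + 1). Genes had to average 1 TPM or more in the compared libraries. Only the knockout and the control clones of its run entered the main fit of a comparison. Fold changes on this scale understate the change of low genes. P-values were adjusted by the Benjamini-Hochberg method over all genes tested, and a gene was called at an adjusted p under 0.05. The labels do not call the runs batches. The fits were tested on simulated data before use; that of ATF1/CREB1-KO did not recover log2 differences of 1 there, whereas the other fits recovered most. Transcript lengths are from GENCODE M21 on GRCm38.

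The members and lists were chosen with earlier results of these data known. Named in every comparison were 15 members, with each called member, the 3 largest changes in each direction, and up to 5 called genes of the wider lists in each direction. Alternatives were other pseudocounts, filters, scalings, weights, control sets and the removal of each library.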

Additional observations from a re-analysis of the deposited data

Results flagged for a closer look

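Single libraries stood away from the rest of their group in 3 of the 98 groups of 5 libraries that could be examined, where chance gives about 1 in 20. Cdc45, the replisome factor, was at 102.92 TPM in ATF1-KO replicate 1, under the 121 to 124 TPM of the other 4 replicates. Cdc20, the activator of the anaphase-promoting complex, was at 226.24 TPM in ATF1-KO replicate 2, above the 180 to 193 TPM of the other 4. Ccnd1 was at 7.39 TPM in control clone 4, under the 12.1 to 13.7 TPM of the other control clones of run 1, and without that clone the ATF1-KO change of Ccnd1 was 0.54 on the log2 scale. E2f1 is listed because it passed the test of a difference of effects: the ATF1/CREB1-KO effect minus the ATF1-KO effect was -0.6732 on the log2 scale (SE 0.16, limma adjusted p = 0.0350), with all 3 ATF1/CREB1-KO libraries under their own controls. It was 1 of 49 members tested, beside 1.46% of 13295 genes. Genotype and run go together in that contrast and cannot be told apart.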

How the results depend on the processing

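Of 588 comparisons of a named member with another setting of the whole fit, 521 kept direction and side of the threshold, 28 passed it newly, 12 no longer passed it and 27 changed sign. Members called stayed at 0 in ATF1-KO under every setting run. Against all 11 control clones, which mixes the runs, the ATF1-KO medians were 0.61 (S phase) and 0.82 (mitotic), the ATF1/CREB1-KO medians -1.92 and -1.86 with 4260 genes and 33 members called, and the ATF1/CREB1/CREM-KO medians 0.090 and 0.43 with 137 genes and 0 members. Signs that turned there were Mki67 0.23, Cdc45 0.78 and Rfc4 0.31 in ATF1-KO, then Pcna -0.70, Ccnb1 -1.89, Cdkn1a 0.13, Cdkn1b 0.84, Ccne1 -1.15 and Tyms -0.27 in ATF1/CREB1-KO, and Kif23 0.48, Mcm2 0.43, Mcm5 0.48, Cdc6 0.33, E2f1 0.18, Ccna2 0.38, Mki67 0.24, Top2a 0.36, Cdkn1b -0.65 and Mcm4 0.075 in ATF1/CREB1/CREM-KO. With array weights, 461 genes and 4 members were called in ATF1/CREB1-KO, and 4381 genes and 24 members in ATF1/CREB1/CREM-KO. Signs turned there for Rrm2 in ATF1-KO (-0.029), Pcna (-0.28), Ccnb1 (-0.21) and Tyms (-0.10) in ATF1/CREB1-KO, and Rrm2 (-0.073), Ccnb1 (-0.041) and Cdkn1b (-0.015) in ATF1/CREB1/CREM-KO. With run as a term over all 22 libraries, ATF1/CREB1-KO had 609 genes and 7 members called.

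Calls over all genes in ATF1/CREB1-KO were 0 with no filter, 18 with median-ratio scaling, 21 without ribosomal and mitochondrial genes and 15 with the length trend removed. Quantile normalization put Ccnb1 at -0.0055 there. In ATF1/CREB1/CREM-KO no filter gave 710 genes and 0 members, and the S phase median was -0.28 both with median-ratio scaling and with the length trend removed. Members called for the difference between ATF1/CREB1-KO and ATF1-KO effects were 5 with median-ratio scaling (3.07% of genes) and 24 without ATF1/CREB1-KO replicate 3 (4.66% of genes), and for ATF1/CREB1/CREM-KO against ATF1-KO they were 4 without that replicate (6.60% of genes). The cause of these moves was not tested.

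Leaving out each library in turn gave 0 to 1 genes called in ATF1-KO, 0 to 60 genes and 0 to 1 members in ATF1/CREB1-KO, and 185 to 3317 genes and 0 to 16 members in ATF1/CREB1/CREM-KO. The ranges were -0.051 to 0.064 for the S phase median and 0.082 to 0.18 for the mitotic median of ATF1-KO, -0.59 to -0.09 and -0.39 to -0.23 for that of ATF1/CREB1-KO and of ATF1/CREB1/CREM-KO, and -0.67 to 0.03 and -0.20 to 0.012 for the mitotic medians of these last 2. Members whose sign turned had ranges of -0.059 to 0.070 (Cdc6), -0.086 to 0.096 (Rrm2) and -0.083 to 0.041 (Mki67) in ATF1-KO. In ATF1/CREB1-KO they were -0.79 to 0.047 (Rrm2), -1.07 to 0.44 (Cdk1), -0.55 to 0.62 (Pcna), -0.23 to 0.37 (Ccnd1), -0.52 to 0.53 (Ccnb1), -0.24 to 0.58 (Ccne1) and -0.42 to 0.59 (Tyms). In ATF1/CREB1/CREM-KO they were -0.26 to 0.0070 (Mcm5), -0.21 to 0.016 (Top2a), -0.086 to 0.15 (Ccnb1), -0.086 to 0.17 (Rrm2) and -0.61 to 0.016 (Cdkn1a).

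ATF1-KO and control clones 1 to 5 share replicate numbers, but same-numbered libraries had correlations of -0.103 to 0.084 between their deviations, and 1 of 5 numbers correlated best with its own. They share only a number. With the replicate number as a block, 0 genes and 0 members were called, and the medians were 0.02 (S phase) and 0.13 (mitotic). The limits are 3 libraries a group in 2 of the 3 comparisons, TPM without depth, 1 genotype per run and unknown clone identity.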
